A study of Rattus norvegicus with 21 samples.

Results

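The transcription factor KLF2 was knocked down in cultured ventricular myocytes of newborn rats (NRVMs), which then received phenylephrine (PE). The comparison rests on 4 RNA sequencing libraries of the 21 libraries in the series. They are the 2 libraries of cells given a small interfering RNA against Klf2 and then PE (siKlf2 PE) and the 2 libraries of cells given a negative control RNA and then PE (siNeg PE), taken by their sample labels. The siRNA preceded PE by 12 h, and PE was given at 100 µM for 36 h. Beside them stand the same knockdown without PE (siKlf2 and siNeg, 4 libraries) and overexpression with PE (AdKlf2 PE and AdGFP PE, 6 libraries). By their labels, the overexpression cells had PE for 36 h and an adenovirus for 24 h. The virus carried Klf2 or, as control, green fluorescent protein. The dose of 100 µM stands in the labels of all 20 RNA libraries, so the groups without PE are told apart by their titles and a labelled time of 0 h. If that label means an earlier harvest, PE cannot be told apart from time in culture or time after the siRNA. The cells are primary cultures kept in DMEM with insulin, transferrin and selenium, and the knockdown is transient.

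KLF2 is a zinc finger protein that binds CACCC-type elements, and it is best known from endothelial cells, where laminar flow induces it and it holds down inflammatory and clotting genes. PE activates α1-adrenergic receptors, which signal through Gq, phospholipase C, protein kinase C and calcium. In cultured myocytes it brings on hypertrophic growth, with larger cells, more protein and renewed use of fetal cardiac genes. Per the labels, the knockdown addressed whether less KLF2 makes that hypertrophy worse. Genes were listed by Ensembl ID, and 0 of the IDs could be paired with a symbol here. Neither the level of Klf2 nor the markers of cardiomyocytes or of other cells in the culture were therefore checked, and the results are given for IDs and for groups of genes by level and response.

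The 4 libraries held 187976317 to 224082309 counts each. Replicates correlated at 0.995 in siNeg PE and 0.995 in siKlf2 PE (Pearson, log2 CPM across genes, where CPM, the usual counts-per-library-size unit, is the level used throughout). The siNeg PE pair differed more than the siKlf2 PE pair relative to counting noise, with a chi-square per degree of freedom of 47.2 against 10.9. The labels do not say whether replicates were separate cell preparations, so the tests measure the spread between libraries, which may be technical.

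Knockdown under PE changed a large part of the transcriptome. Of 18173 genes tested, 54.3% were called at an adjusted p under 0.05 in edgeR's quasi-likelihood test. The 2 groups did not overlap for 13555 genes, 74.6% of those tested. With 2 libraries a side, many genes would be apart without any effect of knockdown. With a call and a fold of at least 1.5, 1185 genes rose (6.52%) and 2080 fell (11.4%). The groups of all of these were apart, which such a choice nearly ensures. The counts of raised and lowered genes depend on the scaling, and with library totals in place of TMM factors 542 rose and 4065 fell. At a fold of at least 2, 438 rose and 1028 fell. Of the genes raised or lowered at least 1.5-fold, 2 had 0 counts in both siNeg PE libraries and 19 in both siKlf2 PE libraries, and their fitted folds depend on the prior count. Fewer cells of one kind and less RNA per cell cannot be told apart in these bulk libraries.

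The direction of change went with the level of the gene. Genes were put into 5 classes by their mean CPM over all 8 knockdown libraries, a scale that is not corrected for gene length. Among the 83 genes of 1000 CPM or more, 34 rose at least 1.5-fold and 0 fell (41% of the class), with 68 called higher and 4 called lower at any size. Of the 1903 genes from 100 to 1000 CPM, 221 rose and 57 fell. The 7040 genes from 10 to 100 CPM were nearly balanced, with 401 raised and 356 lowered. Below that the balance turned. From 1 to 10 CPM 268 of 3728 genes rose and 790 fell, and under 1 CPM 261 of 5419 rose and 877 fell.

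**Figure D1:**
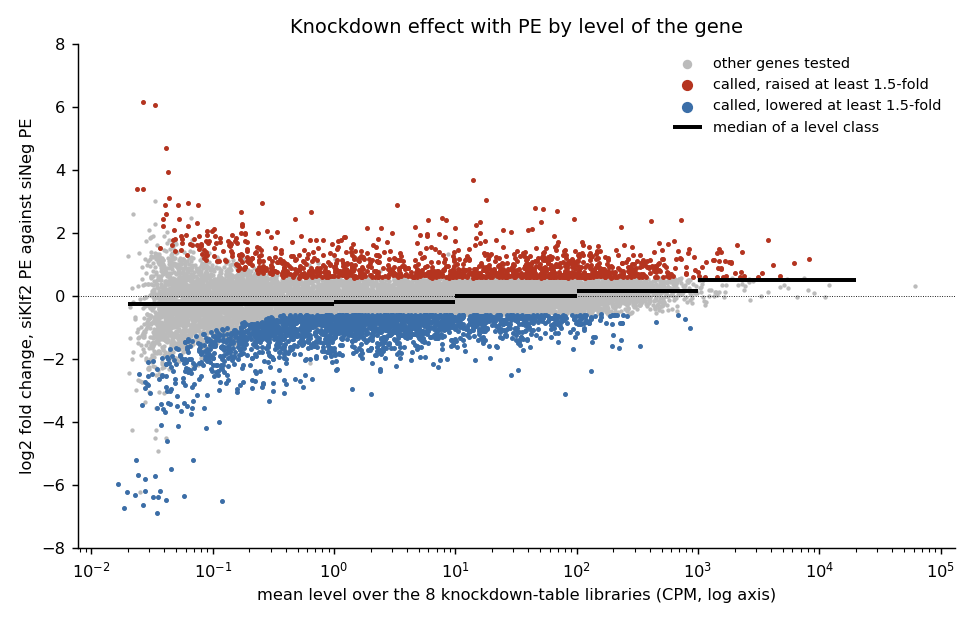
Log2 fold change of siKlf2 PE against siNeg PE (vertical axis) by mean level over the 8 knockdown libraries (horizontal axis, CPM, log scale), 1 point per gene tested. Red points are called and raised at least 1.5-fold, blue points are called and lowered at least 1.5-fold, and black bars are class medians, which step from -0.26 under 1 CPM to 0.51 at 1000 CPM or more.

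The median log2 fold change was -0.26 under 1 CPM, -0.17 from 1 to 10 CPM, 0.01 from 10 to 100 CPM, 0.15 from 100 to 1000 CPM and 0.51 at 1000 CPM or more, against -0.04 over all genes tested. Highly counted genes were thus shifted up and sparsely counted genes down. With library totals alone, without TMM scaling, the median of all genes was -0.30. The class medians were then -0.52, -0.44, -0.25, -0.11 and 0.25, so that only the highest class stayed above 0 while the step between the lowest and highest class, 0.77 with TMM, remained 0.77. The same steps appeared without PE, in other libraries, where the medians ran from -0.24 under 1 CPM to 0.39 at 1000 CPM or more. In the lowest class, 30 genes had 0 counts in both libraries of a PE group, and the median without them was -0.26.

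Replicates gave a measure of error on the same scale. With 0.1 CPM added to each value, 1.5-fold differences between the replicates of siNeg PE were found for 13 of the 7040 genes from 10 to 100 CPM, and between those of siKlf2 PE for 8. The group means differed by that much for 755 genes of the class. Under 1 CPM the replicates differed for 433 genes in siNeg PE and 389 in siKlf2 PE, and the group means for 1054. The contrast between groups and replicates was therefore smallest among the lowest genes, where the median standard error of the log2 fold change was 0.41, against 0.04 from 10 to 100 CPM.

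**Figure D2:**
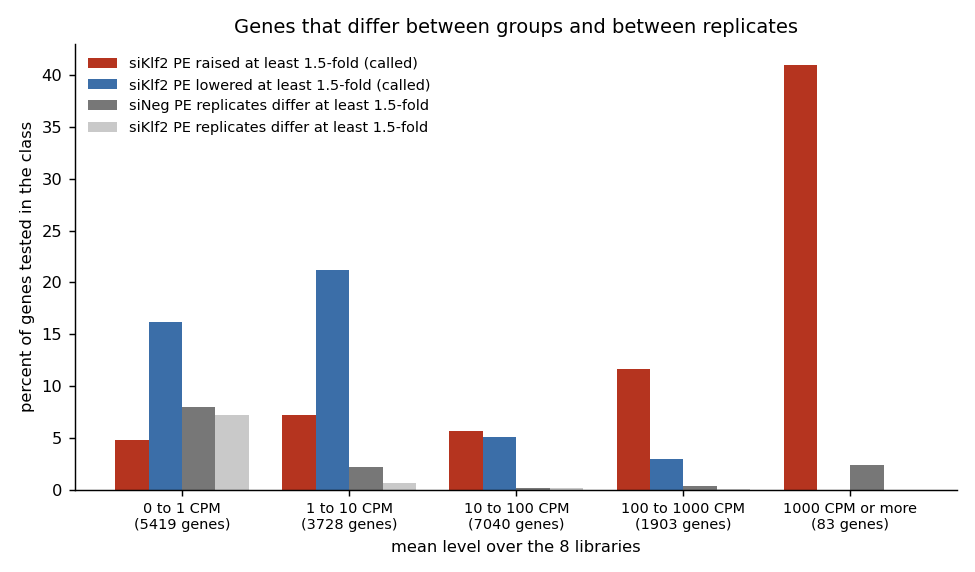
Percent of genes tested in each level class (horizontal axis, mean CPM over the 8 libraries) that were called and raised (red) or lowered (blue) at least 1.5-fold, beside the percent whose 2 replicates differed at least 1.5-fold in siNeg PE (dark grey) and siKlf2 PE (light grey). Lowered genes prevail under 10 CPM and raised genes above 100 CPM, and replicates differ for 7.99% and 7.18% of genes in the lowest class.

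The shares of counts by level class restate the shift by level, since they sum the same counts over the same classes. Genes of 1000 CPM or more took 30.9% of the counts in both siKlf2 PE libraries, against 25.2% and 26.7% in siNeg PE. Without PE they took 27.6% and 28.5% in siKlf2 and 24.9% and 24.4% in siNeg. Genes tested with a mean under 10 CPM held 1.42% of the counts in each siKlf2 PE library, against 1.91% and 1.84% in siNeg PE, and the groups did not overlap. The TMM factors, which offset such shifts, were 0.871 and 0.87 in siKlf2 PE and 1.06 and 1.03 in siNeg PE. The part of RNA quality or of library preparation in these shares was not tested.

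**Figure D3:**
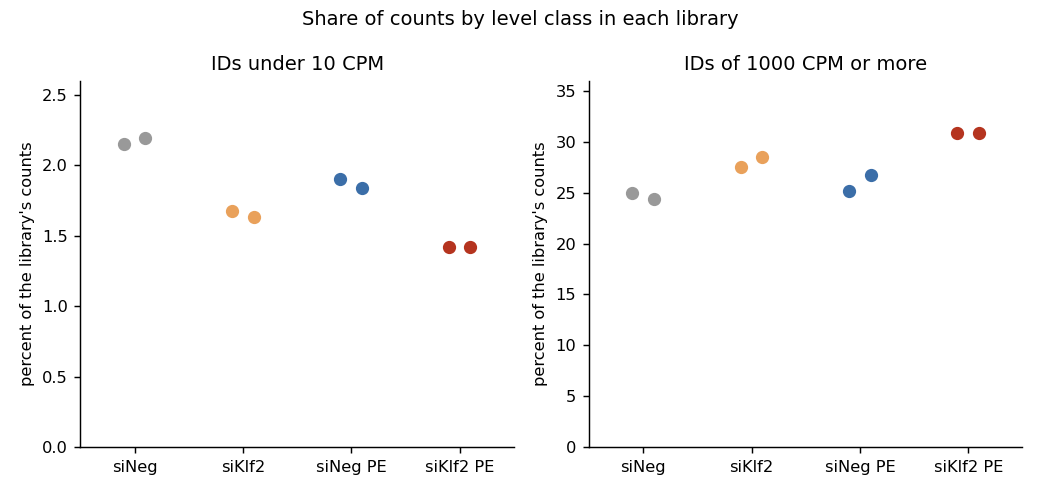
Percent of each library's counts (vertical axes, from 0) in genes tested with a mean under 10 CPM (left) and in genes of 1000 CPM or more (right), with 1 point per library in the 4 knockdown groups. The 2 siKlf2 PE libraries are the lowest at left, at 1.42%, and the highest at right, at 30.9%.

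Fewer IDs were seen at all after knockdown. Of 30560 IDs, 20261 and 20466 had a count in the siKlf2 PE libraries, against 21191 and 21161 in siNeg PE. In the same order, total counts were 187976317 and 205898676 in siKlf2 PE and 224082309 and 203526143 in siNeg PE. The part of depth in these numbers was not tested. A count in both siNeg PE libraries and in neither siKlf2 PE library was found for 403 IDs, and the reverse for 88. These IDs lay near the limit of detection. With at least 10 counts in both libraries of the other group the numbers were 8 and 0, and with at least 20 they were 0 and 0. No fold is given for them.

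The largest rise was that of ENSRNOG00000004731, chosen with the next 3 IDs as the 2 largest rises and 2 largest falls among called genes with at least 10 CPM in the higher group and groups that did not overlap. It lay at 2.41 and 2.42 CPM in the siNeg PE libraries and at 31.4 and 30.1 CPM in siKlf2 PE. Both knockdown libraries were far above both controls, and the replicates nearly coincided. This was a 12.7-fold rise, or 3.67 on the log2 scale (SE 0.056), with an edgeR adjusted p of 7.97e-12. Without PE the same ID lay at 3.49 and 3.29 CPM in siNeg and 19.5 and 19.7 CPM in siKlf2. The rise was larger with PE than without by 1.14 on the log2 scale (SE 0.075, edgeR adjusted p = 6.37e-06), a difference partly built into a choice by the effect with PE. In the overexpression table, whose libraries played no part in the choice, it lay at 2.34, 3.07 and 2.55 CPM in AdGFP PE and at 1.23, 0.564 and 0.966 CPM in AdKlf2 PE. All 3 AdKlf2 PE libraries were below all 3 controls, 2.83-fold in the fit (SE 0.46 on the log2 scale, edgeR adjusted p = 0.00833). With PE, siKlf2 and AdKlf2 thus moved this ID in opposite directions. Without PE the AdGFP libraries (0.797, 3.1 and 1.89 CPM) and the AdKlf2 libraries (2.04, 1.29 and 0.955 CPM) overlapped.

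ENSRNOG00000018867 moved in the same directions after knockdown with and without PE and in AdKlf2 PE. Its level was 4.24 and 4.01 CPM in siNeg PE against 34.6 and 34.2 CPM in siKlf2 PE, with no overlap. The rise was 3.06 on the log2 scale (SE 0.059), at an edgeR adjusted p of 4.59e-11. In cells without PE the level was 6.5 and 6.26 CPM in siNeg and 25.4 and 27.9 CPM in siKlf2. Its rise was again larger with PE, by 1.00 on the log2 scale (SE 0.08, edgeR adjusted p = 2.23e-05). In AdGFP PE it lay at 3.73, 4.24 and 4.61 CPM, and in AdKlf2 PE at 0.435, 0.125 and 0.673 CPM. The AdKlf2 PE libraries, with 30, 4 and 39 counts (which may not all be independent fragments), were all below the controls, with a log2 difference of -3.26 (SE 0.38) and an edgeR adjusted p of 4.05e-07. Unlike the first ID, it did not overlap without PE between AdGFP (3.98, 5.58 and 4.38 CPM) and AdKlf2 (2.45, 1.66 and 2.55 CPM). That difference was not tested.

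The largest fall was that of ENSRNOG00000026679, from 63.8 and 75.5 CPM in siNeg PE to 8.13 and 7.84 CPM in siKlf2 PE. This was an 8.72-fold fall, or -3.12 on the log2 scale (SE 0.075), with an edgeR adjusted p of 1.54e-10. Without PE it went from 184 and 195 CPM in siNeg to 51.1 and 53.4 CPM in siKlf2. The siKlf2 PE libraries were thus the lowest of all 8, and the siNeg libraries without PE the highest. Its fall was deeper with PE, with a log2 difference of -1.26 (SE 0.097, edgeR adjusted p = 1.72e-05). AdKlf2 PE libraries held 102, 103 and 102 CPM against 45.6, 49.8 and 47.9 CPM in AdGFP PE, again the opposite direction and without overlap, by 1.10 on the log2 scale (SE 0.054) at an edgeR adjusted p of 1.65e-12. Without PE the AdKlf2 libraries were also higher, at 260, 260 and 241 CPM against 87, 85.8 and 87.5 CPM in AdGFP. That difference without PE was not tested.

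ENSRNOG00000001963 fell from 30.3 and 27.7 CPM in siNeg PE to 6.67 and 3.7 CPM in siKlf2 PE. Its log2 fold change of -2.49 had an SE of 0.54 (edgeR adjusted p = 0.00215), many times the SE of the other 3 IDs. Replicates were farthest apart without PE, where siNeg held 30.2 and 110 CPM and siKlf2 6.2 and 12.7 CPM. The difference between its falls with and without PE was not called (log2 difference 0.40, SE 0.72, edgeR adjusted p = 0.783). In limma voom with quality weights the fall itself missed the threshold (log2 fold change -2.56, adjusted p = 0.0504), and its adjusted p ran from 1e-12 to 0.0504 over all settings. In AdGFP PE it lay at 0.226, 0.983 and 0.156 CPM and in AdKlf2 PE at 2.5, 0.69 and 1.21 CPM, groups that overlapped and were not called apart (edgeR adjusted p = 0.0585).

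**Figure D4:**
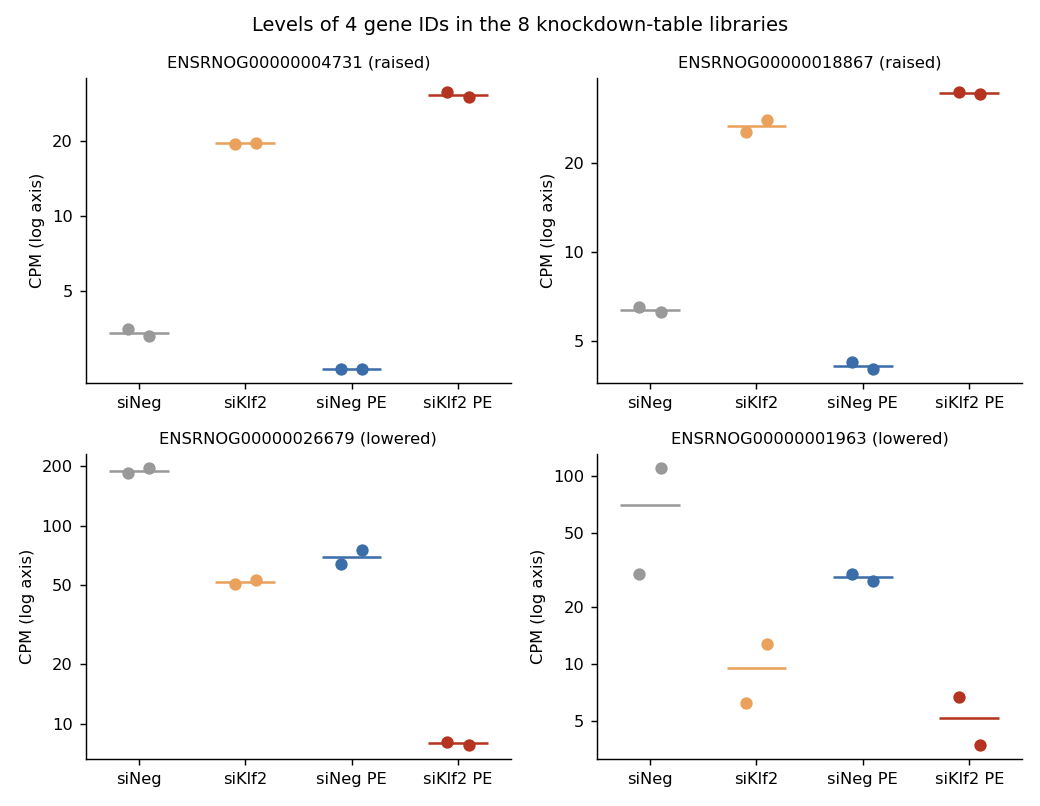
Level of each of the 4 IDs in CPM (vertical axes, log scale) in the 8 knockdown libraries, with 1 point per library and a line at the group mean. Both raised IDs are highest in siKlf2 PE, above 30 CPM, ENSRNOG00000026679 is lowest there, and the siNeg replicates of ENSRNOG00000001963 lie at 30.2 and 110 CPM.

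The 12 largest rises by this rule, of 703 genes that met it, had log2 fold changes of 2.35 to 3.67 and adjusted p of at most 1.08e-09 in edgeR. All 12 were also called higher after knockdown without PE, by 1.14 to 2.53, and the rise was called larger with PE for 12 of 12. The choice by effect with PE favours that order. Among the 12 largest falls, of 456 that met the rule, the changes were 1.63 to 3.12 in size, and all 12 were called lower without PE too, by 0.23 to 2.89. The fall was called deeper with PE for 5 of them. AdKlf2 PE moved 7 of the 12 rises in the opposite direction by at least 1.5-fold and 1 in the same direction. For the 12 falls the opposite direction was found in 3 and the same direction in 5. Over all 15944 genes tested in both tables, AdKlf2 PE lowered 20.6% and raised 25% by at least 1.5-fold. The reversal seen for ENSRNOG00000026679 was not the rule among the 12 falls. In 3 of these 12 genes, and in 0 of the 12 rises, the siNeg replicates without PE differed at least 2-fold, as they did for only 5 of the 9026 genes of at least 10 CPM.

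Knockdown with and without PE changed largely the same genes. Of the 1185 genes raised with PE, 969 were called higher without PE and 5 lower, and 211 were not called. Such calls without PE are at any fold, and the share of all genes with one is not given here. Only the counts at the 1.5-fold limit have a share over all genes beside them. At the 1.5-fold limit 677 rose in both, which is 57.1% of the list with PE and 63.9% of the 1059 raised without PE (5.83% of genes tested). Of the 2080 lowered genes, 1609 were called lower without PE and 17 higher. At the 1.5-fold limit 1349 fell in both, 64.9% of the list with PE and 64.5% of the 2093 lowered without PE (11.5% of genes tested). The lists chosen with PE had medians of 0.85 and -0.99 with PE and of 0.67 and -0.85 without. Lists chosen without PE showed the reverse order, with medians of 0.84 and -1.02 without PE and of 0.73 and -0.84 with PE. Each list was larger in the comparison that chose it.

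The difference between the effects was tested directly by the interaction, which called 7.08% of genes higher and 7.35% lower with PE. The labelled PE times were 36 h and 0 h, so time after the siRNA may differ along with PE. The interaction cannot tell these apart. Among the 1185 raised genes the rise was called larger with PE for 338 (28.5%) and smaller for 72. Among the 2080 lowered genes the fall was called deeper for 241 (11.6%) and shallower for 65. Because the list was chosen by the effect with PE, a surplus of larger effects is expected from the choice and is given as a description. A group of 28 raised and 64 lowered genes was not called without PE and had a called interaction in the same direction. In these genes an effect with PE, and a difference from the effect without PE, both passed the test. The number of interaction calls over all genes depended on single libraries. It was 2622 with all libraries, and 1685 without siKlf2 PE replicate 1, 1739 and 1553 without siNeg replicates 1 and 2, and 1669 without siKlf2 replicate 1.

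Overexpression under PE was set beside the knockdown over 15944 genes tested in both tables, which share no library. Of 1076 such genes raised by knockdown, AdKlf2 PE lowered 365 by at least 1.5-fold (33.9%), while it lowered 20.6% of all 15944. It raised 231 of them (21.5%), against 25% of all. The median log2 fold change of the list in AdKlf2 PE was -0.31, against -0.05 for all genes. The lowered genes leaned the other way by less. Of 1884, AdKlf2 PE raised 583 (30.9%) and lowered 409 (21.7%), near the background shares of 25% and 20.6%, with a median of 0.08. The 365 and 583 genes make up 11.1% of the genes lowered and 14.6% of those raised by AdKlf2 PE.

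Level was again part of this pattern. Among raised genes of at least 100 CPM, AdKlf2 PE lowered 125 of 255 (49%), against 27.8% of all genes at that level. It lowered 38.9% of the raised genes from 10 to 100 CPM, against 23.3% of all, and 20% of those under 10 CPM, against 15.8% of all. Reversal with AdKlf2 PE was thus most frequent among highly counted raised genes. Lowered genes under 10 CPM, the bulk of their list, were raised by AdKlf2 PE in 473 of 1471 cases (32.2%), against 29% of all genes of that level. From 10 to 100 CPM, 28.4% of lowered genes were raised and 32.3% lowered, against 24.1% and 23.3% of all, so in this class both directions were more frequent than among all genes. Most genes changed by knockdown under PE had no opposite change of this size after overexpression.

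**Figure D5:**
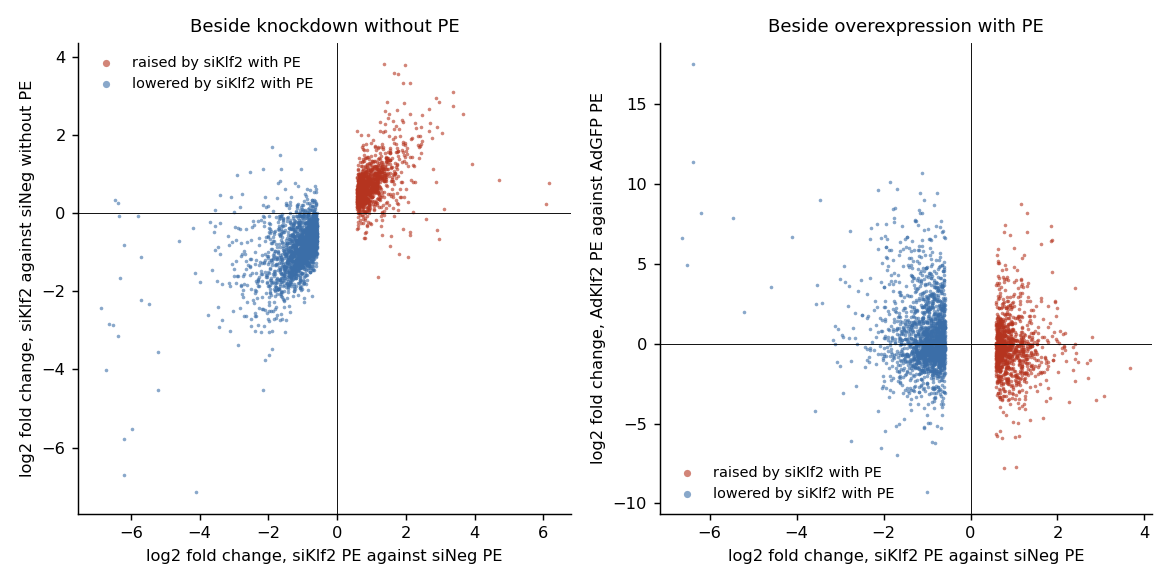
Log2 fold change of siKlf2 PE against siNeg PE (horizontal axes) for genes called and raised (red) or lowered (blue) at least 1.5-fold, beside the change by knockdown without PE (left) and by AdKlf2 PE against AdGFP PE (right, genes tested in both tables). At left most points keep their direction, and at right both colours spread above and below 0, with list medians of -0.31 and 0.08.

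Genes moved by knockdown under PE were also set beside the PE response of AdGFP cells, libraries that share nothing with the knockdown table. The AdGFP PE libraries enter both this PE response and the effect of AdKlf2 PE, with opposite sign. The shares raised by PE and lowered by AdKlf2 PE are therefore not independent of each other. PE raised 273 of the 1076 knockdown-raised genes in AdGFP (25.4%), against 6.38% of all genes, and lowered 57 (5.3%), against 7.69%. Of the 1884 knockdown-lowered genes PE lowered 337 (17.9%) and raised 114 (6.05%). Under 10 CPM, where 1471 of them lay, PE lowered 247 (16.8%), against 11% of all genes at that level. From 10 to 100 CPM it lowered 79 of 356 (22.2%), against 5.63% of all. At 100 CPM or more it lowered 11 of 57 (19.3%), against 3.37%. At 100 CPM or more, 99 of 255 raised genes (38.8%) were PE-raised in AdGFP, against 10.4% of all genes at that level. From 10 to 100 CPM the number was 116 of 401 (28.9%), against 6.01% of all, and under 10 CPM it was 58 of 420 (13.8%), against 5.59%. With library totals in place of TMM factors, 474 raised genes were tested in both tables, and 33.8% of them were PE-raised in AdGFP and 37.8% lowered by AdKlf2 PE. The AdGFP libraries without PE, which enter the PE response and not the effect of AdKlf2 with PE, had fewer IDs with a count (16238 to 16812) than the other groups of their table (17059 to 18661).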

How the data were processed

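The submitters' processing notes name Trim Galore, STAR, featureCounts and the build mRatBN7.2. Their versions and settings are not given in the sources used here. Libraries came from 400 ng of total RNA, per the labels. Both tables were deposited by the authors as whole-number counts for each Ensembl ID, without normalization. Even values made up 59.8% to 66.6% of counts from 1 to 20 in the knockdown libraries and 72.1% to 82.2% in the overexpression libraries, so a count may not be an independent fragment.

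Each table was fitted with edgeR 4.0.16 in R 4.3.3 (filterByExpr with a minimum count of 10 and total of 15, TMM factors, 1 coefficient per group, quasi-likelihood F test, two-sided). The Benjamini-Hochberg adjustment covered all 18173 or 16153 genes tested, with a threshold of 0.05. Levels are CPM of scaled library sizes. The SE is the log2 fold change divided by the square root of F. The procedure was tested on simulated data with 200 changed genes and no shift by level. In the real data 54.3% of genes were called and the shift went with level. The simulation therefore cannot show how the scaling behaves here.

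Since 0 IDs matched a symbol, the planned gene lists, markers, promoter motif and peaks at genes were not analysed here. The rule then named the 2 largest rises and 2 largest falls. Members, lists and level classes were chosen with earlier results of these data known. Alternatives were RLE factors, library totals, 2 filters, DESeq2 1.42.0, limma 3.58.1 voom, a replicate block, fits of the 2 groups, glmTreat, halved counts and leaving out each PE library. Leaving out each library without PE was added after the data were seen. Summaries and figures used Python 3.11.15, pandas 2.3.3, numpy 2.4.6 and matplotlib 3.10.9.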

Additional observations from a re-analysis of the deposited data

Results flagged for a closer look

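For 3 of the 4 followed IDs the effect of knockdown differed between cells with and without PE by the interaction test. The log2 difference was 1.14 for ENSRNOG00000004731, 1.00 for ENSRNOG00000018867 and -1.26 for ENSRNOG00000026679. Their adjusted p in edgeR were 6.37e-06, 2.23e-05 and 1.72e-05, and over all settings the largest were 0.000168, 0.00043 and 0.000614. Choice of the IDs by their effect with PE favours differences in these directions. Time after the siRNA may also have differed between cells with and without PE.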

How the results depend on the processing

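With 2 libraries a side, precision rests on a spread shared by all 4 groups, and a lone library left in a group was taken to vary like the others. Library totals without TMM factors gave 1845 genes higher and 9741 lower, so that 15.9% of called genes were higher rather than 48.1%, and at the 1.5-fold limit 542 raised and 4065 lowered. The interaction calls were then 24.2% higher rather than 49.1%. Requiring a mean of 10 CPM, which tests fewer genes and refits the TMM factors on them, gave 6531 calls, 2996 of them higher. It gave 497 raised and 557 lowered genes, and the median from 10 to 100 CPM was -0.06 rather than 0.01. The main fit had more raised than lowered genes in each class from 10 CPM up (401 and 356, 221 and 57, 34 and 0). Which direction prevailed from 10 CPM up thus differed between these fits. Testing against the fold itself (glmTreat) gave 607 and 862. Leaving out single libraries moved the calls between 8385 and 9622, those higher between 4413 and 4941, those lower between 3956 and 4993, the raised between 1112 and 1253, the lowered between 1705 and 2056 and the interaction between 1553 and 3312. The step in medians between the lowest and highest class stayed between 0.74 and 0.82 in every setting that held both classes. The difference for ENSRNOG00000001963, never called, ran from -0.82 to 1.05 when single libraries were left out. It was -0.07 without siKlf2 PE replicate 1, -0.82 without siNeg replicate 2 and -0.02 without siKlf2 replicate 1, and the cause was not tested. The deviations of same-numbered PE libraries correlated at 0.0251, which cannot tell whether these libraries shared a cell preparation. With the replicate block 9838 genes were called, and it changed no call of the 4 IDs. No other planned setting moved a count by over 1.5 times.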
